A study of Mus musculus with 4 samples.

Results

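Heat-shock proteins and molecular chaperones bind unfolded or misfolded proteins and help them reach or regain their shape. HSP70 proteins take up exposed peptide stretches with the help of J-domain proteins (HSP40) and hand clients on to HSP90, whose co-chaperones steer the cycle. The CCT ring encloses newly made actin and tubulin, and a separate set of mitochondrial chaperones folds proteins imported into that organelle. Heat-shock factors switch on the inducible members when proteins unfold, while the constitutive members are made in all cells. The list described here held 35 genes of these families, chosen by symbol. All 35 were found, each with a single identifier, among the 54532 genes of the deposited tables, and 33 had enough counts to be tested.

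The cells were PMN-MDSC (polymorphonuclear myeloid-derived suppressor cells), a neutrophil-like population that dampens T cell responses, purified from the spleen of newborn C57BL/6 mice. The first group was kept for 5 days with NECA, a long-lived agonist of the adenosine receptors, and the other with DMSO, the vehicle. Each group had 2 libraries. No allele, transgene or other agent is given for either group. No label ties the 2 libraries of a group to different animals or cultures, so the p-values measure only the spread between these libraries, which may be technical. Whether NECA changes the genes of protein folding in these cells is the question that this comparison addresses.

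Total counts per library lay between 15864120 and 18712625. The 12 neutrophil markers were all detected and summed to 123120 and 128671 CPM (counts scaled to a common library size, here TMM-adjusted) in the DMSO libraries and to 136983 and 137897 CPM in the NECA libraries. All 12 had log2 fold changes above 0, for 11 the groups did not overlap, and 2 were called higher by edgeR's test (Mmp8 and Mmp9, named after their values were seen). Among all genes tested, 22.4% had both NECA libraries above both DMSO libraries and 0.352% were called higher. Markers of other cells were also present, with lower sums in both NECA libraries than in both DMSO libraries. The 14 monocyte and macrophage markers summed to 723 and 634 CPM in the DMSO libraries and to 341 and 277 CPM in the NECA libraries, and 12 of 14 fell by edgeR's test. Sums for 8 B cell markers were 145 and 152 CPM against 77.4 and 13.8 CPM, those for 7 erythroid markers 1176 and 482 against 338 and 18.5 CPM, and those for 7 T and NK cell markers 23.5 and 28.5 against 16.8 and 17.6 CPM. By edgeR's test 1 of the 8 B cell markers was called lower (Blnk, named after its values were seen), and 0 of the 7 erythroid and 0 of the 4 tested T and NK cell markers were called. At unadjusted p under 0.05, 8, 7 and 3 of them were lower, against 8.88% of all genes tested (0.978% were called lower). None of these markers was at 0 in all libraries. The 10 markers of cycling cells summed to between 1398 and 1661 CPM, and 0 of them were called. In bulk RNA, fewer cells of a type and less RNA per cell cannot be told apart.

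Sequences from RefSeq (GRCm38.p6) are shown for the promoters on which the results below bear: that shared by the mitochondrial pair Hspd1 and Hspe1, that of Trap1 as a mitochondrial member of another locus, and that of Hspa1b as a classic heat-inducible gene. Hspd1 and Hspe1 run in opposite directions from neighbouring starts on chromosome 1. RefSeq places the start of Hspe1 at 55088148 and lists 2 for Hspd1. From the one at 55087932 there are 215 bases between the genes, and the stretch shown lies there. From the other, at 55088243, the genes overlap and the stretch lies within Hspd1. Capitals mark heat-shock elements, searched as 3 alternating blocks of GAA and TTC with any 2 bases between neighbours (GAA, TTC, GAA or TTC, GAA, TTC), which covers both strands.
Hspd1-Hspe1, chr1:55088053-55088082, + strand: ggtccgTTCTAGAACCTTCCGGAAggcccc
Trap1, chr16:4077828-4078060, - strand: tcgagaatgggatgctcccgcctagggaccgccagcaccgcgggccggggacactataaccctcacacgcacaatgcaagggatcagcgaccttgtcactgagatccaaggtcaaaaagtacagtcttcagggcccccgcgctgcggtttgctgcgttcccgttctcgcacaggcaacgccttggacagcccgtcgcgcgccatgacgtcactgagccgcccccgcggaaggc
Hspa1b, chr17:34959239-34959488, - strand: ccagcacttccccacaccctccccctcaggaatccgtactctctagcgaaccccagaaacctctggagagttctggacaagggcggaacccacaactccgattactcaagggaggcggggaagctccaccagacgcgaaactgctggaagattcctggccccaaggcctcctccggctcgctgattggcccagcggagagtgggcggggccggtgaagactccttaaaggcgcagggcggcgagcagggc

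The 30 bases shown for Hspd1 and Hspe1 held 2 matches that overlap each other, TTCTAGAACCTTC and GAACCTTCCGGAA as read toward Hspe1, beginning 89 and 84 bases before its start. The stretches of Trap1 and Hspa1b held none, which says only that these letters are not in these windows. In the RefSeq table, which covers 250 bases before to 50 bases after each start, 28 of the 35 genes had a promoter. Hspa9, Hsp90aa1, Hsp90ab1, Hspa8, Hsf1, Cct4 and Dnajc2 had none there and were not searched. Of the 28, 4 held the element (Hspd1 and Hspe1, through the same bases, Dnajb6 and Hsph1). That is 14.3%, against 0.662% of all 27025 genes in the table. In Dnajb6 it was GAATCTTCCGGAA, 46 bases before the first of the 2 listed starts. In Hsph1 it was TTCTGGAAAGTTC and lay after the start. The CCAAT box (CCAAT or ATTGG), a common promoter element, was in 15 of 28 listed genes (53.6%) and in 41.1% of all genes in the table. A match is a description of letters and not a bound site.

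The main constitutive chaperones were abundant in both groups, and several genes known for strong induction by stress, though not all, had low levels. Levels of different genes are compared here as deposited FPKM, which is scaled by gene length. Hspa8, the constitutive HSP70, had the highest mean of the list (79.8 FPKM, rank 486 if placed among the 13083 genes tested). Hsp90ab1, the constitutive HSP90, followed with 75.5 FPKM, and Bag1, which releases nucleotide from HSP70, with 35.8 FPKM. Several stress-inducible genes were far lower. The mean was 0.0908 FPKM for Hspa1a, 0.217 FPKM for Hspa1b and 0.227 FPKM for Bag3. It was 0.277 FPKM for the HSP110 gene Hsph1 and 0.358 FPKM for the J-domain gene Dnajb4. The lengths implied for Hsph1 and Dnajb4 were long (7276 and 8769 bases), and Dnajb4 had 50 to 63 counts per library. Other inducible genes were not low: Hsp90aa1, the inducible HSP90, had 17.1 FPKM and the J-domain gene Dnajb1 18.5 FPKM. Hspb1, the small heat-shock protein of the list, had 0 counts in all 4 libraries. A count of 0 allows up to 3 counts, or 0.157 to 0.194 CPM in these libraries (counting error only). Hspb1 also has a processed pseudogene and a coding gene that match it over at least 493 bases at over 95% identity. Both were at 0 too, and the treatment of reads with several matches is not given in the sources used here.

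**Figure D1:**
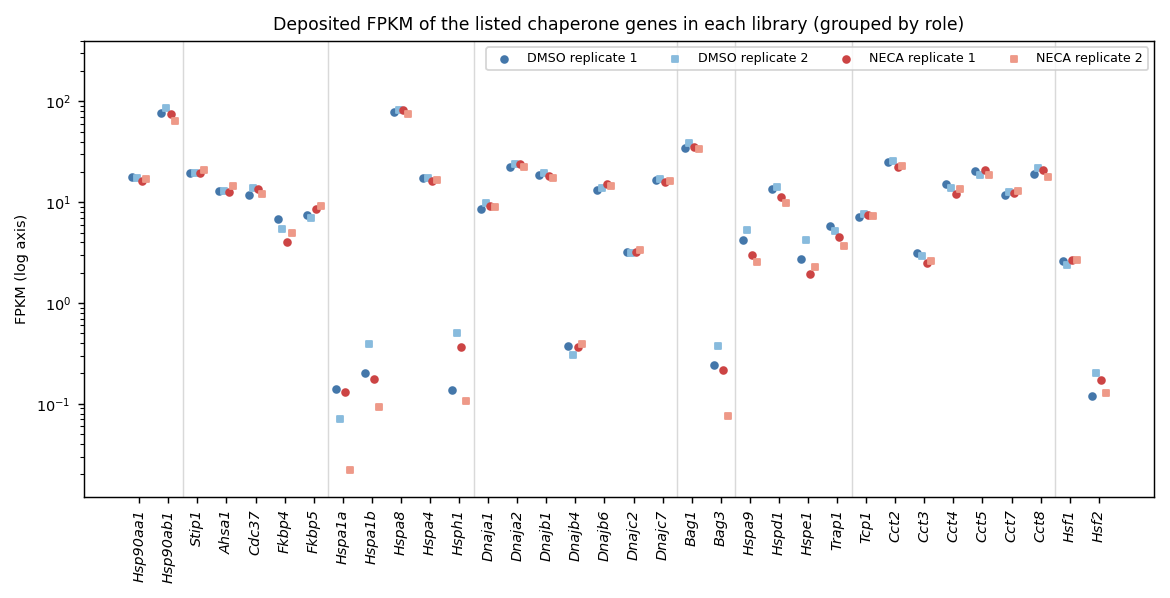
Deposited FPKM (log axis) of each listed gene in the 4 libraries, ordered by role and separated by vertical lines. Blue points are DMSO and red points NECA, circles are replicate 1 and squares replicate 2. Hspa8 and Hsp90ab1 lie at the top, Hspa1a, Hspa1b, Hsph1, Dnajb4, Bag3 and Hsf2 below 1 FPKM, and Hspb1 (0 in all libraries) is not drawn.

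With NECA, 1 of the 33 tested genes fell, 0 rose and 32 did not pass edgeR's quasi-likelihood test at adjusted p under 0.05. Among all 13083 genes tested, 0.978% were called lower, 0.352% higher and 1.33% in either direction. The median log2 fold change of the 33 genes was -0.09, against -0.01 over all genes tested, and 24 of 33 values lay below 0, against 51.4% of all genes. At unadjusted p under 0.05, 8 genes were lower (8.88% of all genes were) and 1 was higher (6.81% of all genes were). For 15 genes both NECA libraries lay below both DMSO libraries, and for 3 both lay above, against 24.3% and 22.4% of all genes tested. The 1 call, Hspa9, depended on the libraries and did not hold without DMSO replicate 1 or without DMSO replicate 2. Its log2 fold change was -0.94 and -0.60 there, and -0.92 and -0.67 without NECA replicates 1 and 2. Which listed genes were lower at unadjusted p under 0.05 also changed with the library left out, so the 8 are not a fixed set. The lean of the list toward lower values also rested on single libraries: without DMSO replicate 2 the median was -0.0092 with 18 of 33 values below 0, and without NECA replicate 2 it was -0.032 with 19.

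**Figure D2:**
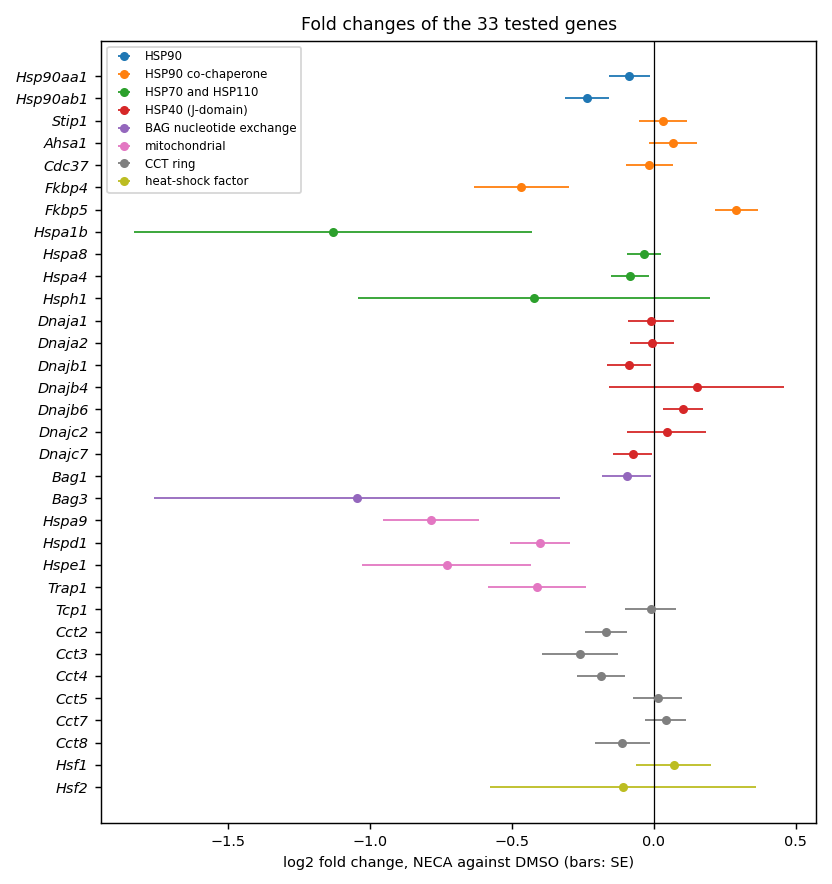
Log2 fold change of NECA against DMSO (x axis) for each of the 33 tested genes (y axis, coloured by role), with bars of 1 SE from edgeR's fit. The 4 mitochondrial chaperones lie between -0.79 and -0.40, most abundant cytosolic genes lie near 0, and the widest bars belong to the scarce genes Hspa1b, Bag3 and Hsph1.

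The mitochondrial chaperones had the lowest summed level relative to DMSO among the classes with counts. All 4 had both NECA libraries below both DMSO libraries and an unadjusted p under 0.05, and 1 of the 4 was called. Among all genes tested, 24.3% had both NECA libraries below both DMSO libraries. By edgeR's test 8.88% were lower at unadjusted p under 0.05, and 0.978% were called lower. Summed, they had 71.8 and 77.8 CPM in the DMSO libraries and 56.2 and 48.5 CPM in the NECA libraries, so that the NECA mean was 70.0% of the DMSO mean, against 87.0% (HSP90) to 105% (HSP90 co-chaperones) for the other classes. Hspa9 (mortalin), the HSP70 of the matrix that also pulls proteins through the import channel, had 16.6 and 21.0 CPM in the DMSO libraries and 11.8 and 9.95 CPM in the NECA libraries. The groups did not overlap, and the NECA libraries were closer to each other than the DMSO libraries were. The gene lies on chromosome 18 from 34937414 to 34954357 (GRCm38). It fell from 18.8 ± 3.08 to 10.9 ± 1.31 CPM (SD, n = 2 each), a log2 fold change of -0.79 (SE 0.17, adjusted p = 0.0486, edgeR). That p lies just under the threshold: it was 0.0706 without DMSO replicate 1, 0.24 without DMSO replicate 2, and 0.0551 when the libraries were scaled by RLE in place of TMM. With limma on the deposited FPKM it was 0.225. The direction was the same under all 10 alternatives, with values from -0.94 to -0.60, and the gene was called in 6 of them.

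Hspd1 (HSP60), the barrel of the mitochondrial folding chamber, had 36.1 and 37.3 CPM in the DMSO libraries and 29.9 and 25.7 CPM in the NECA libraries. Hspe1 (HSP10), the lid of that chamber, had 4.08 and 6.21 CPM in the DMSO libraries and 2.86 and 3.36 CPM in the NECA libraries. Both NECA libraries were below both DMSO libraries for each gene, and the DMSO libraries of Hspe1 were far apart. Hspd1 stood at a log2 fold change of -0.40 (SE 0.11, adjusted p = 0.0887, edgeR) and Hspe1 at -0.73 (SE 0.30, adjusted p = 0.257). Hspd1 passed without NECA replicate 1 (adjusted p = 0.0129) and with library size alone as the scale (adjusted p = 0.0456). These are the genes that share the promoter stretch with the heat-shock element printed above, and the files cannot tell what acts on it. Their annotated exons overlap on opposite strands by 112 bases, and the use of strand in counting is not given in the sources used here. The processed pseudogene Hspd1-ps3, near-identical to Hspd1 over 1722 bases, had 68 and 60 counts with DMSO and 29 and 38 with NECA, against 691 and 703 and 544 and 398 for Hspd1. Summed with it, Hspd1 stood at -0.43 (adjusted p = 0.0586). A coding gene matches Hspe1 over 515 bases at 99.0% identity and is not among the genes deposited. How reads that match both were counted is not known. Trap1, the mitochondrial HSP90, had 15.0 and 13.3 CPM in the DMSO libraries and 11.7 and 9.50 CPM in the NECA libraries. Its log2 fold change was -0.41 (SE 0.17, adjusted p = 0.268, edgeR). The size of both Hspe1 and Trap1 varied with the setting. Over the 10 alternatives it ran from -0.995 to -0.39 for Hspe1 and from -0.57 to -0.27 for Trap1.

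**Figure D3:**
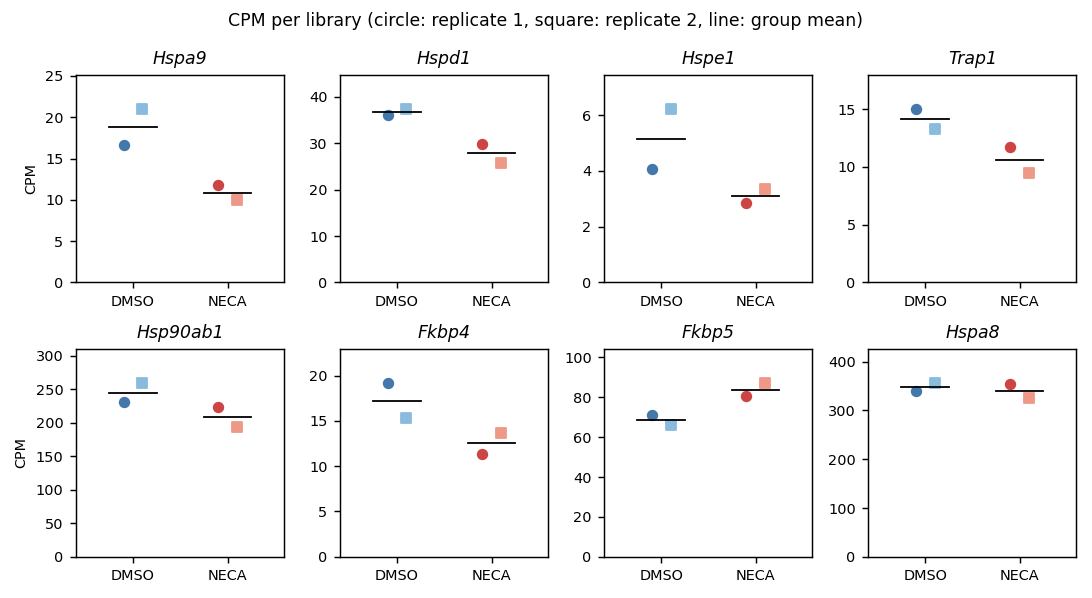
CPM (y axis, from 0) in each library for the 4 mitochondrial chaperones, Hsp90ab1, Fkbp4, Fkbp5 and Hspa8, with DMSO and NECA on the x axis. Circles are replicate 1, squares replicate 2 and black lines group means. NECA lies below DMSO without overlap for Hspa9, Hspd1, Hspe1, Trap1, Hsp90ab1 and Fkbp4, above it for Fkbp5, and overlaps it for Hspa8.

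The summed markers of other cells were lower with NECA, as the summed mitochondrial chaperones were, and those of neutrophils were higher (109% of the DMSO mean). The NECA mean of the summed markers was 45.5% of the DMSO mean for monocytes and macrophages, 21.5% for erythroid cells, 30.7% for B cells and 66.1% for T and NK cells. NECA replicate 2 was the lowest library for the first 3 lists, as it was for the summed mitochondrial chaperones, and NECA replicate 1 was the lowest for T and NK cells. The part of these markers in the lower values of Hspa9, Hspd1, Hspe1 and Trap1 was not tested. Cycling markers did not show this order: their NECA mean was 106% of the DMSO mean.

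**Figure D4:**
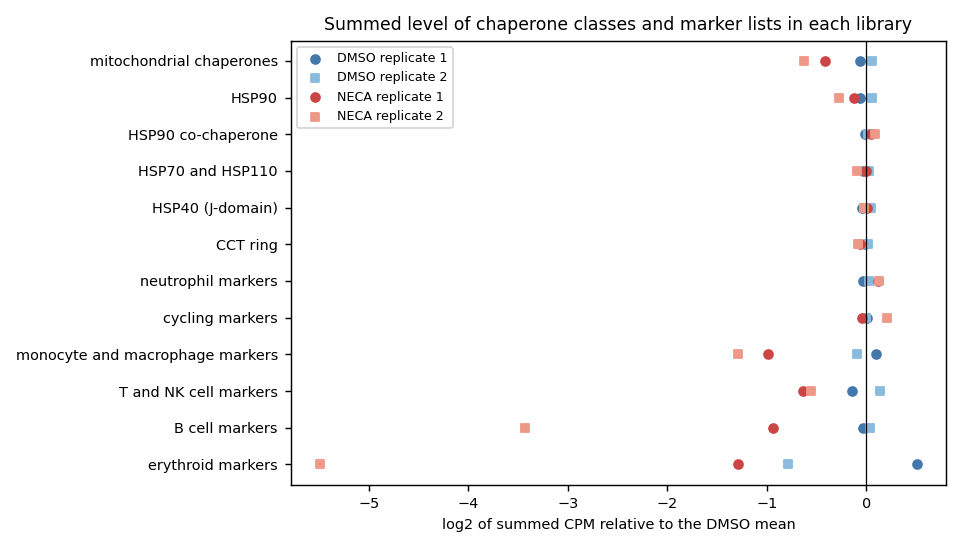
Log2 of the summed CPM of chaperone classes and marker lists in each library relative to the DMSO mean (x axis, 0 is the DMSO mean). Blue is DMSO and red NECA, circles are replicate 1 and squares replicate 2. The mitochondrial chaperones lie at -0.41 and -0.62 with NECA, the other chaperone classes between -0.28 and 0.08, the T and NK cell markers at -0.64 and -0.56, the macrophage, B cell and erythroid markers lower, and the neutrophil markers at 0.12 and 0.13.

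Of the cytosolic HSP90 genes, neither was called. Hsp90ab1 had 232 and 259 CPM in the DMSO libraries and 224 and 193 CPM in the NECA libraries. The groups did not overlap, but DMSO replicate 1 and NECA replicate 1 were close. Its log2 fold change was -0.23 (SE 0.08, adjusted p = 0.159, edgeR), and it passed without NECA replicate 1 (-0.35, adjusted p = 0.000469). Hsp90aa1, the inducible form, had 69.4 and 68.9 CPM in the DMSO libraries and 64.3 and 66.1 CPM in the NECA libraries, a log2 fold change of -0.09 (SE 0.07, adjusted p = 0.64). Its 3 annotated processed pseudogenes together held 3.51% as many counts as the gene itself.

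The HSP90 co-chaperones did not move in 1 direction. Fkbp5, an immunophilin that lowers the hormone affinity of steroid receptors and is itself a well-known glucocorticoid target, was the only listed gene with an unadjusted p under 0.05 and a higher level with NECA. It had 71.0 and 66.0 CPM in the DMSO libraries and 80.7 and 86.9 CPM in the NECA libraries, without overlap. Its log2 fold change was 0.29 (SE 0.08, adjusted p = 0.088, edgeR). Without NECA replicate 1 it was 0.34, and without NECA replicate 2 it was 0.24. Fkbp4, the immunophilin that aids those receptors and so acts opposite to Fkbp5, had 19.1 and 15.3 CPM in the DMSO libraries and 11.3 and 13.7 CPM in the NECA libraries. Those groups did not overlap either, and its log2 fold change was -0.47 (SE 0.17, adjusted p = 0.197). Both genes kept their direction under all 10 alternatives, with values from 0.22 to 0.35 for Fkbp5 and from -0.61 to -0.29 for Fkbp4. Stip1, which links HSP70 to HSP90 and was the most abundant co-chaperone per length (19.8 FPKM), had 42.6 and 42.4 CPM in the DMSO libraries and 41.8 and 45.1 CPM in the NECA libraries. Its groups overlapped, and its log2 fold change was 0.03 (SE 0.09, adjusted p = 0.914). The log2 fold changes of the other 2 were also close to 0, at 0.07 for Ahsa1, which speeds the ATPase of HSP90, and at -0.02 for Cdc37, which brings kinases to it.

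In the HSP70 class no gene was called. Hspa8 had 340 and 355 CPM in the DMSO libraries and 354 and 325 CPM in the NECA libraries, with overlapping groups and a log2 fold change of -0.03 (SE 0.06, adjusted p = 0.85, edgeR). Hspa4, an HSP110-type exchange factor, had 97.0 CPM in both DMSO libraries and 90.5 and 92.5 CPM in the NECA libraries (log2 fold change -0.08, adjusted p = 0.606). The inducible genes had too few counts for a firm statement. Hspa1b had 11 and 21 counts with DMSO and 9 and 4 with NECA, and Hspa1a, too low to be tested, had 8 and 4 counts against 7 and 1. These neighbours on chromosome 17 (Hspa1b from 34956436 to 34959238, Hspa1a from 34969190 to 34972156, GRCm38) match over 2201 bases at 99.2% identity, so reads cannot be divided between them with certainty. Summed, the pair stood at a log2 fold change of -0.91 (adjusted p = 0.531, edgeR). Hsph1 had 19 and 69 counts with DMSO and 48 and 12 with NECA: it differed more within each group than between them.

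The J-domain and BAG genes showed no call. Over the 7 J-domain genes the log2 fold changes ran from -0.09 to 0.15, with a median of -0.01. Dnaja2, the most abundant of them per length (23.0 FPKM), had 66.3 and 71.2 CPM in the DMSO libraries and 70.4 and 66.4 CPM in the NECA libraries (log2 fold change -0.01, adjusted p = 0.983, edgeR). Dnajb1, the main heat-inducible J-domain partner of HSP70, stood at 18.5 FPKM, unlike Dnajb4, and at a log2 fold change of -0.09 (adjusted p = 0.653). Dnajb6, which holds back aggregation and has the heat-shock element named above, had 81.3 and 84.5 CPM in the DMSO libraries and 91.0 and 86.8 CPM in the NECA libraries, without overlap (log2 fold change 0.10, adjusted p = 0.544). Bag1 had 47.1 and 52.7 CPM in the DMSO libraries and 47.6 and 45.7 CPM in the NECA libraries, with overlapping groups (-0.10, adjusted p = 0.67). Bag3, which directs clients to autophagy, had 12 and 18 counts with DMSO and 10 and 3 with NECA (adjusted p = 0.541).

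None of the 7 subunits of the CCT ring was called. Cct2 had 64.6 and 65.8 CPM in the DMSO libraries and 57.6 and 58.4 CPM in the NECA libraries, without overlap and with little spread within groups (log2 fold change -0.17, SE 0.07, adjusted p = 0.296, edgeR). Cct4 had 63.2 and 58.2 CPM in the DMSO libraries and 50.6 and 56.2 CPM in the NECA libraries (-0.19, SE 0.09, adjusted p = 0.317). Cct3 stood at -0.26 (adjusted p = 0.379), again without overlap, and Cct8 at -0.11, with overlap. Tcp1, Cct5 and Cct7 stood at -0.01, 0.01 and 0.04, values whose sign changed with the scaling or with single libraries. Annotated exons of Tcp1, Cct7 and Cct8 overlap a gene on the opposite strand (Acat3, Pradc1 and Usp16, by 571, 214 and 192 bases), so their counts are uncertain where strand was not used, as are those of Dnaja1 (Smu1, 608 bases), Dnajc7 and Dnajb6. Subunits that enter the ring in equal numbers differed in FPKM from 2.77 for Cct3 to 24.1 for Cct2. Part of that range comes from the lengths used: those implied by the ratio of count to FPKM were 6376 bases for Cct3 and 2559 bases for Cct2, close to the union of all annotated exons (6370 and 2557 bases). By CPM alone, Cct3 had 19.3 and Cct2 had 65.2 with DMSO.

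The heat-shock factors, which drive the inducible genes, were not called. Hsf1, the main stress sensor, had 18.7 and 17.1 CPM in the DMSO libraries and 18.8 and 18.7 CPM in the NECA libraries (log2 fold change 0.07, SE 0.13, adjusted p = 0.87, edgeR). Hsf2 had 22 and 37 counts with DMSO and 30 and 19 with NECA, with overlap (adjusted p = 0.949).

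A further list held 82 genes of the same machinery, among them other J-domain and small heat-shock proteins, prefoldins, co-chaperones and the chaperones of the endoplasmic reticulum. Of these 67 were tested, and edgeR called 0 of them higher and 0 lower. At unadjusted p under 0.05, 2 were higher (6.81% of all genes were) and 6 were lower (8.88% of all genes were). For 10 of the 67 both NECA libraries lay above both DMSO libraries, and for 22 both lay below, against 22.4% and 24.3% of all genes tested. The median log2 fold change of the 67 genes was -0.09, equal to that of the 33 genes above to 2 decimals. The 4 with the smallest p-values were all lower, with both NECA libraries below both DMSO libraries. They were picked by p-value from these data, so that order is not further support. St13, which stabilises the bound state of HSP70, had 32.6 and 28.3 CPM in the DMSO libraries and 23.4 and 22.2 CPM in the NECA libraries (-0.41, adjusted p = 0.101). Lonp1, the protease that clears misfolded proteins from the mitochondrial matrix, had 29.4 and 27.0 CPM against 21.6 and 21.4 CPM (-0.39, adjusted p = 0.112). Hspa5, the HSP70 of the endoplasmic reticulum, had 184 and 198 CPM against 175 and 166 CPM (-0.16, adjusted p = 0.24). Ptges3 (p23), which holds HSP90 in its closed form, had 21.0 and 17.7 CPM against 15.8 and 14.2 CPM (-0.37, adjusted p = 0.246). Some other mitochondrial genes of this list were looked up after values were seen. Grpel1, the exchange factor of Hspa9, stood at -0.17 (adjusted p = 0.552), and the J-domain gene Dnajc15 at -0.45 (adjusted p = 0.44), both without overlap. Dnaja3, the J-domain partner of Hspa9 (0.01), Grpel2 (-0.15) and the disaggregase Clpb (-0.11) had overlapping groups. Cct6a, the CCT subunit outside the main list, stood at -0.06 (adjusted p = 0.836). The crystallin gene Cryab had 0 counts in 3 libraries, and Hspb2, Hspb3, Hspb7 and Serpinh1 had 0 counts in all 4. The small heat-shock gene Hspb6, also looked up after values were seen, was detected in all 4. Its mean was 2.53 FPKM and its log2 fold change -0.43, without overlap (adjusted p = 0.449, edgeR).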

How the data were processed

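RNA of 4 libraries, 2 with DMSO and 2 with NECA, was analysed. Each table deposited by the authors lists, per Ensembl gene, the raw read count and an FPKM value, per the file headers. The submitters' processing notes name HISAT, StringTie and edgeR without versions, with mm10 and GRCm38 as builds. What counted the reads, from which annotation, whether by strand and how multiply matching reads were handled is not given in the sources used here. The deposited FPKM carry the same information as the counts: over 9004 well-counted genes (minimum 50) the count-to-FPKM ratio was in constant proportion between libraries.

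Counts were tested as deposited in R 4.3.3 with edgeR 4.0.16: filterByExpr (minimum count 10), TMM scaling, glmQLFit and glmQLFTest on group alone (2 residual degrees of freedom), with Benjamini-Hochberg adjustment over all 13083 genes tested and a threshold of 0.05. SE values are log2 fold change over the square root of F. CPM is on TMM-scaled sizes. The alternatives used DESeq2 1.42.0, limma 3.58.1 on log2(FPKM + 1), other scalings, no filter, a replicate block, each library left out, and summed copies. The test was run on simulated data. Positions, exon overlaps and near-identical copies (at least 200 bases at 95% identity, by BLAST of transcripts) are from GENCODE M21 on GRCm38.

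The members and lists were chosen with earlier results of these data known. Per-library values are given for genes at unadjusted p under 0.05 and for the most abundant gene of each role, and for others chosen after their values were seen. For the further list they are given for the 4 smallest p-values. Replicates differed beyond counting noise (chi-square over its degrees of freedom was 6.78 between the DMSO libraries and 5.38 between the NECA libraries). Sequences of promoters are from RefSeq.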

Additional observations from a re-analysis of the deposited data

How the results depend on the processing

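Counts of called genes moved with the processing. For all genes (46 higher, 128 lower) they were 21 and 217 with library size alone (8.82% of calls higher, against 26.4% with TMM; median shift of all genes -0.07), 285 and 590 without a filter on low counts, 123 and 298 with the replicate block, and 1 and 0 with limma on log2(FPKM + 1); DESeq2 called 143 higher. Leaving out 1 library gave 8 to 227 higher and 45 to 594 lower. For the listed genes (0 higher, 1 lower) there were 2 lower with library size alone, 0 lower with RLE and 0 lower with limma, 1 higher and 3 lower without the filter, and 0 to 1 higher and 0 to 3 lower when 1 library was left out. The replicate block left the listed genes at 0 higher and 1 lower. Same-numbered libraries deviated together with r = 0.02 across genes, which cannot tell whether they share an animal, culture or run. The cause of these shifts was not tested.

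Direction changed for genes near 0 or with few counts. With library size alone Stip1 stood at -0.040, Ahsa1 at -0.0040, Dnajc2 at -0.027, Cct5 at -0.059, Cct7 at -0.030 and Hsf1 at -0.0030. With limma Dnaja2 stood at 0.0011. When each library was left out in turn, values crossed 0 for 11 genes: from -0.022 to 0.086 for Stip1, -0.032 to 0.16 for Ahsa1, -0.11 to 0.098 for Cdc37, -0.098 to 0.026 for Hspa8, -1.58 to 0.80 for Hsph1, -0.099 to 0.094 for Dnaja1, -0.051 to 0.049 for Dnaja2, -0.044 to 0.031 for Tcp1, -0.067 to 0.088 for Cct5, -0.00082 to 0.096 for Cct7 and -0.44 to 0.33 for Hsf2. Hspa9, Hspd1, Hspe1, Trap1, Hsp90ab1, Fkbp4 and Fkbp5 kept their direction under every alternative run for them. Depth limits Hspa1a, Hspa1b, Hsph1, Bag3, Hsf2 and Dnajb4, with at most 69 counts in any library. When 1 library is left out, the lone library of its group is assumed to vary like the other group.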
